A study of Mus musculus with 12 samples.

Results

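Metallothioneins and zinc transport were followed here through 8 genes: the metallothioneins Mt1 and Mt2, the metal-sensing transcription factor Mtf1, the exporters Slc30a1 and Slc30a5, and the importers Slc39a8, Slc39a14 and Slc39a1. The genes were chosen by name, with earlier results of these data known. They were among 10996 genes measured in whole mouse lung on 12 Affymetrix arrays, each array being 1 mouse aged 8 to 12 weeks. The arrays formed 4 groups of 3: GADD45-/- mice after ventilator-induced lung injury (VILI), GADD45-/- mice labelled SB, WT mice after VILI, and WT mice labelled SB. VILI was 4 hours of ventilation at a tidal volume of 30 ml/kg and 65 breaths per minute. The labels do not spell out SB, the design text treats it as the control, and the series title names the deleted gene as Gadd45a. Neither the strain nor the extent of the deletion is given in the sources used here. The design asks what injurious ventilation changes in each genotype, and whether loss of Gadd45a alters the unventilated or the ventilated lung.

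Metallothioneins are small cysteine-rich proteins that bind zinc, copper and cadmium and buffer the free zinc of a cell. Their genes are switched on when Mtf1, which senses zinc through its zinc fingers, binds short metal response elements in their promoters, and also by glucocorticoids, oxidants and inflammatory cytokines. Zinc leaves the cytosol through SLC30 (ZnT) exporters and enters it through SLC39 (ZIP) importers. Slc30a1, the plasma membrane exporter, is itself a target of Mtf1. Slc39a14 and Slc39a8 are close relatives that carry zinc, manganese and iron, and hepatic Slc39a14 is known to rise with interleukin 6 in the acute phase.

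The promoters of the 3 members with more than 1 match to the metal response element core are shown because they display what Mtf1 is known to bind. The windows were 250 bases before to 50 bases after each RefSeq gene start on build GRCm38.p6, and 7 of the 8 members had one, Slc39a8 with 2 starts; Slc39a14, which has no entry in the table, could not be searched. Mt2 and Mt1 lie next to each other on chromosome 8, with Mt3 before Mt2 and Nup93 after Mt1. Capitals mark the core, TGCACNC or TGCGCNC, on either strand, and no match overlapped another.
Mt1 upstream, chr8:94178839-94179088, plus strand: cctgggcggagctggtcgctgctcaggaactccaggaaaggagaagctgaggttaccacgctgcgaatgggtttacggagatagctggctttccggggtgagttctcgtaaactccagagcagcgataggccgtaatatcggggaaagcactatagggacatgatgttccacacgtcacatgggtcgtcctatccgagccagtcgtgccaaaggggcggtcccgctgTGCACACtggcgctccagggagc
Mt1 after the start, chr8:94179091-94179115, plus strand: TGCACTCcgcccgaaaagTGCGCTC
Mt2 upstream, chr8:94172368-94172617, plus strand: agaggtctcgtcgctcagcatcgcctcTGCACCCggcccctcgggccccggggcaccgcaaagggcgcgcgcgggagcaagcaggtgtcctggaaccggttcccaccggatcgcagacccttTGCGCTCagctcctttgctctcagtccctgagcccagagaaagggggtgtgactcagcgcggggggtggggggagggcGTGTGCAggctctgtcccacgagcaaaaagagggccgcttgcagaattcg
Slc30a1 upstream, chr1:191906531-191906780, plus strand: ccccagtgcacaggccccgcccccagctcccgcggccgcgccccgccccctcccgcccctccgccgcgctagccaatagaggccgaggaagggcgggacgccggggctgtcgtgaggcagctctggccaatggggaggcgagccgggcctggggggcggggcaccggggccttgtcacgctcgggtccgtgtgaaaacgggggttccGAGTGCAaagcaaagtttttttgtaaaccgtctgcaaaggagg

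The Mt2 window held 4 matches to the metal response element core and the Mt1 window held 3. Slc30a1 had 2, Slc30a5 had 1, the windows of Slc39a8 had 0 and 1, and Mtf1 and Slc39a1 had 0. The Mt2 matches began 223, 128 and 50 bases before the start and at base 5 after it, the last being GTGCGCA. In Mt1 they began 23 bases before the start and at bases 3 and 21, and in Slc30a1 43 bases before it and at base 31, where it reads GAGCGCA. Of all 32817 RefSeq windows of this length, 25.7% held at least 1 match, 7.12% at least 2, 1.97% at least 3 and 0.518% at least 4. An antioxidant response element, TGACNNNGC, was found once each in Mt2, Slc30a1, the first window of Slc39a8, Slc39a1 and Slc30a5, and in 12.4% of all windows. The E-box CACGTG was found in the second window of Slc39a8 and in Slc30a5, against 7.15% of all windows. The STAT element TTCNNNGAA had 0 matches in the windows of these 7 members and at least 1 in 8.29% of all. A match is only a run of letters in these windows, and no binding was measured. Positions are counted from the RefSeq gene start, and where transcription begins was not measured. Sequence outside the windows was not searched, so these counts are not the full number of elements of a gene.

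Each gene is given by its probe set with the highest mean, in the authors' log2 units. Among the 8 genes, limma called 3 in each genotype after VILI at an adjusted p under 0.05, all of them higher: Mt1, Mt2 and Slc39a14. Over all genes, 4.47% were called for VILI in the knockout, either direction, and 2.76% were called higher. In WT the shares were 2.64% and 1.36%. Because the 8 genes were chosen with earlier results of these data known, their count beside these shares is a description. The median change of the 8 genes was 0.22 in the knockout, against 0.00 over all genes, and 0.06 in WT, against -0.05 over all genes. Changes of VILI averaged over both genotypes, where 17.8% of all genes were called and 8.42% were called higher, also gave 3 of 8, the same 3. The other 5 genes did not pass in any of these comparisons. With only the 6 knockout arrays in the fit 0 of the 8 passed in the knockout, at changes of the same direction. Without WT VILI replicate 2 the count in WT was 0 as well, again at changes of the same direction. The averaged calls held in each alternative tried. The averaged SE and p take same-numbered SB arrays of the genotypes as independent, though these deviated together over all genes. All were measured in bulk lung tissue, where fewer cells of a type and less RNA per cell cannot be told apart.

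**Figure D1:**
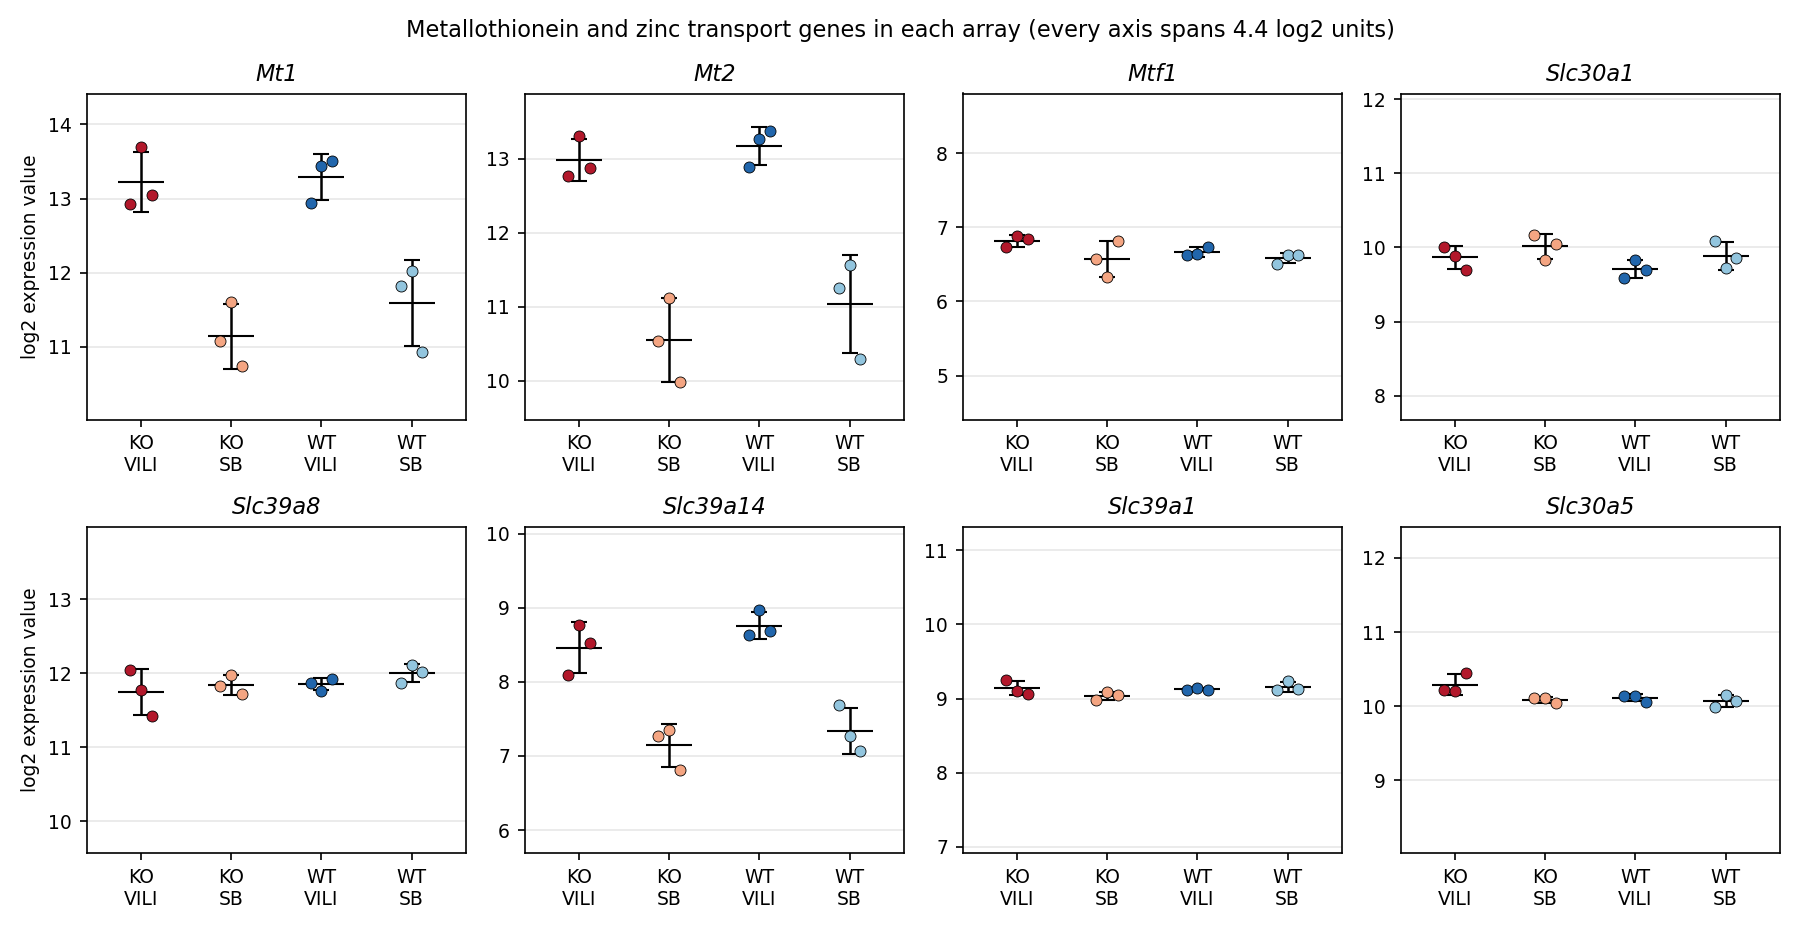
Log2 expression values (y axis, authors' units) of the 8 genes in each array, by group (x axis). Points are arrays, the long horizontal line is the group mean and the error bars are 1 SD (n = 3); every y axis spans 4.4 log2 units, so steps can be compared between genes but heights cannot. VILI and SB arrays are separated for Mt1, Mt2 and Slc39a14 in both genotypes, and lie close together for the other 5.

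The metallothioneins moved furthest. In GADD45-/- lungs Mt2 read 12.76, 13.30 and 12.88 after VILI, against 10.55, 11.11 and 9.99 under SB. In WT lungs it read 12.89, 13.26 and 13.37 after VILI, against 11.25, 11.56 and 10.30 under SB. Every VILI array lay above every SB array, and the step between treatments was larger than the spread within any group. Mt2 rose by 2.43 in the knockout (SE 0.33, 95% interval 1.71 to 3.15, limma adjusted p = 0.00595), a 5.39-fold difference, and by 2.13 in WT (SE 0.33, interval 1.41 to 2.86, adjusted p = 0.0129), a 4.39-fold difference.

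Mt1 separated the treatments too. Its values in GADD45-/- lungs were 12.93, 13.69 and 13.05 after VILI, against 11.07, 11.61 and 10.74 under SB. Those in WT lungs were 12.94, 13.44 and 13.50 after VILI, against 11.82, 12.02 and 10.93 under SB. The VILI arrays again lay above all SB arrays, and within SB replicate 2 was the highest and replicate 3 the lowest in both genotypes, for Mt1 and for Mt2. Mt1 rose by 2.08 in the knockout (SE 0.31, interval 1.41 to 2.76, limma adjusted p = 0.00799) and by 1.70 in WT (SE 0.31, interval 1.03 to 2.38, adjusted p = 0.0235), which is 4.24-fold and 3.26-fold. Averaged over genotypes the rises were 2.28 for Mt2 (SE 0.23, adjusted p = 0.000354) and 1.89 for Mt1 (SE 0.22, adjusted p = 0.000589). These averaged SE and p take the SB arrays of the genotypes as independent, though same-numbered ones deviated together over all genes.

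The probe set behind these Mt1 values carries the suffix s_at, which in Affymetrix naming marks probes that can match more than 1 transcript, so how much Mt2 RNA it reads was not tested. A second probe set of Mt1 (1451612_at) has no such suffix. It read 6.75, 9.54 and 7.75 in GADD45-/- VILI lungs, against 4.67, 5.22 and 4.58 in GADD45-/- SB lungs, and 7.59, 8.47 and 7.87 in WT VILI lungs, against 4.50, 5.0 and 4.52 in WT SB lungs. Its VILI arrays stood above its SB arrays as well, and replicate 2 of the knockout VILI group was the highest of all. The rise was 3.19 in the knockout (SE 0.54, adjusted p = 0.0177 in limma's fit of all 23082 kept probe sets) and 3.31 in WT (SE 0.54, adjusted p = 0.0210). Its SB values lie near the array medians of 4.37 to 4.59, where little signal is read, so these sizes are approximate.

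**Figure D2:**
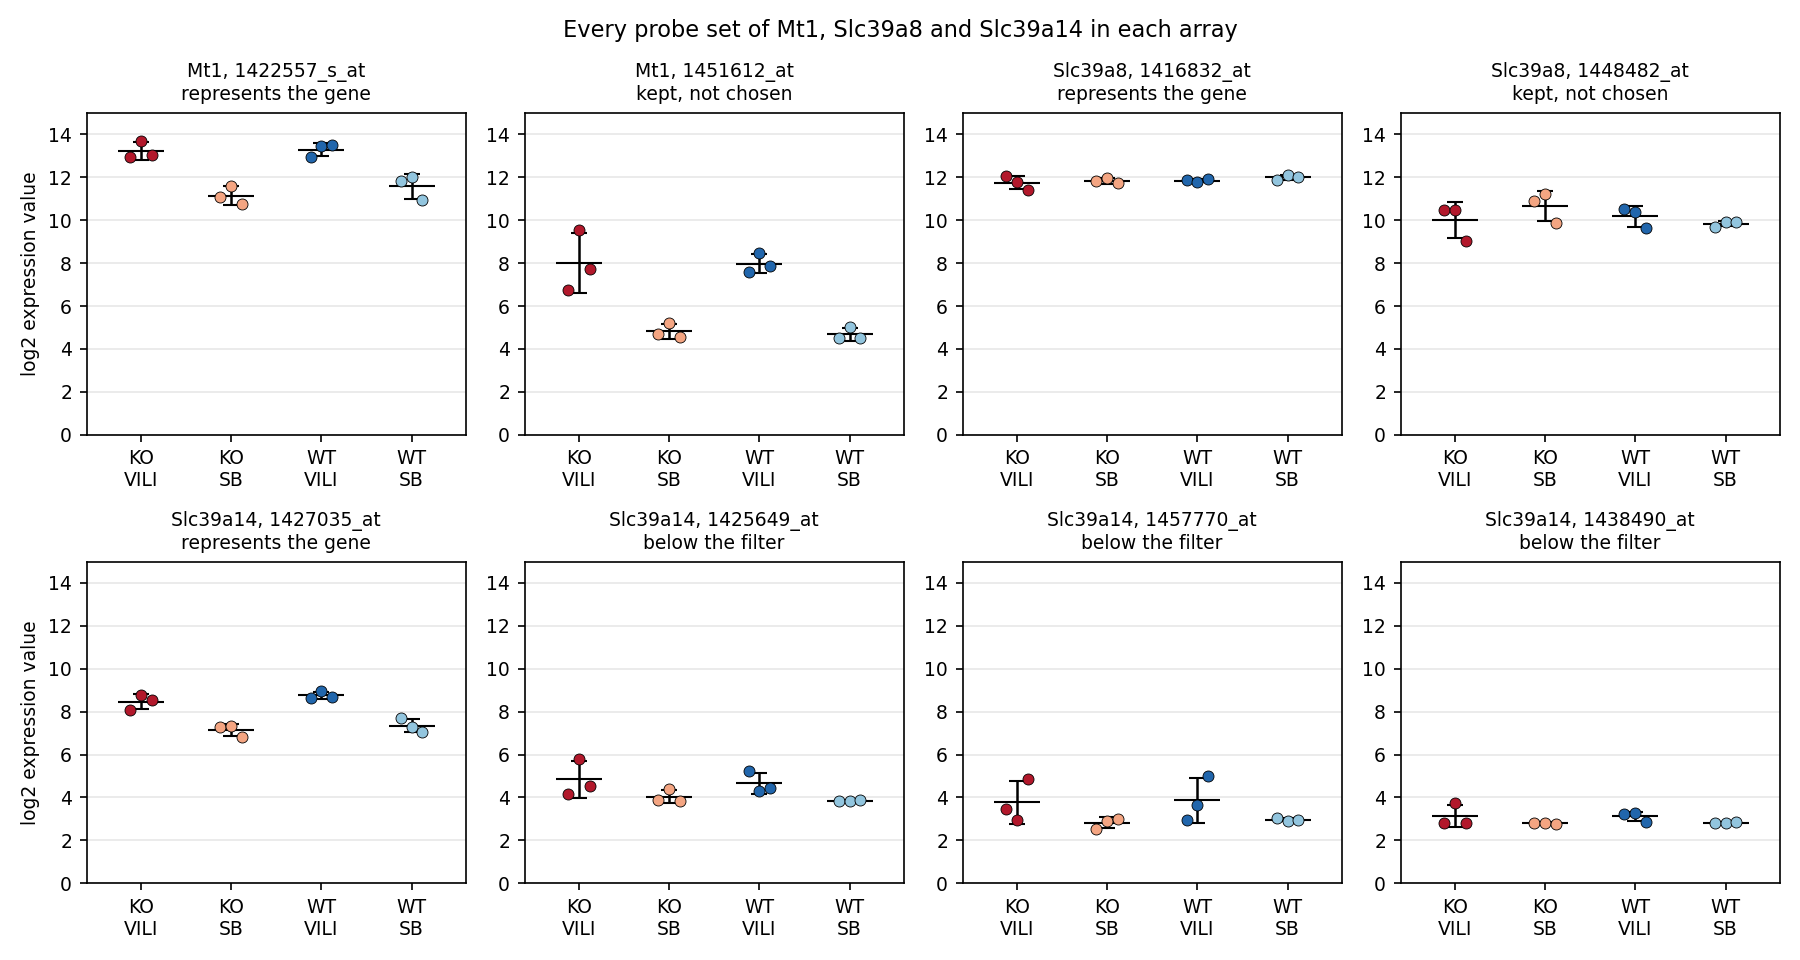
Log2 expression values (y axis) of every probe set of Mt1, Slc39a8 and Slc39a14 in each array, by group (x axis), with the group mean and SD bars (n = 3). Both Mt1 probe sets separate VILI from SB, only 1 of the 4 Slc39a14 probe sets passed the filter on low values, and the probe sets of Slc39a8 differ in their order of arrays.

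Within an array, the difference between the 2 metallothioneins shifted with ventilation. Mt2 minus Mt1 averaged -0.25 ± 0.13 in GADD45-/- VILI lungs and -0.59 ± 0.14 in GADD45-/- SB lungs (SD, n = 3 each). It averaged -0.12 ± 0.06 in WT VILI lungs and -0.55 ± 0.09 in WT SB lungs (SD, n = 3 each). All VILI arrays (-0.39 to -0.05) lay above all SB arrays (-0.76 to -0.46), so the Mt2 value moved further than the Mt1 value, by 0.39 (exact permutation test over treatment within genotype, two-sided p = 0.005, the smallest that the 400 relabellings allow). This order holds for the first Mt1 probe set only: with the mean of both it turned to -0.29 (exact permutation p = 0.195). The relabellings take the arrays of the genotypes as independent, though same-numbered SB arrays deviated together over all genes.

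Across the 6 VILI arrays, Mt1 and Mt2 moved together from mouse to mouse. Pearson's r was 0.950 (exact permutation p = 0.0319, adjusted 0.0683 over the 6 relations computed) and Spearman's rho was 0.886 (exact p = 0.0333, adjusted 0.0875), with r = 0.981 without the 2 arrays farthest from the Mt1 median. Mt2 and Slc39a14 gave r = 0.770 (exact permutation p = 0.0361, adjusted 0.0683) and rho = 0.771 (exact p = 0.103, adjusted 0.103), with r = 0.856 without the 2 farthest. Mt1 and Slc39a14 gave r = 0.692 (exact permutation p = 0.0972) and rho = 0.771 (exact p = 0.103), with r = 0.650 without the 2 farthest. None of the 3 passed after adjustment, which also counted the 3 relations under SB. These exact p take the 6 arrays as independent and ignore genotype. Over all genes, same-numbered VILI arrays of the genotypes correlated weakly, at 0.053, 0.144 and 0.095. Across the 6 SB arrays r was 0.994 for Mt1 and Mt2, 0.772 for Mt2 and Slc39a14 and 0.763 for Mt1 and Slc39a14, with rho of 1, 0.829 and 0.829 and with r of 0.993, 0.896 and 0.913 without the 2 farthest. Same-numbered SB arrays of the genotypes deviated together over all genes, so these 6 are not independent and their values are a description with no p. How much Mt2 RNA the Mt1 probe set reads was not tested, and it bears on r.

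**Figure D3:**
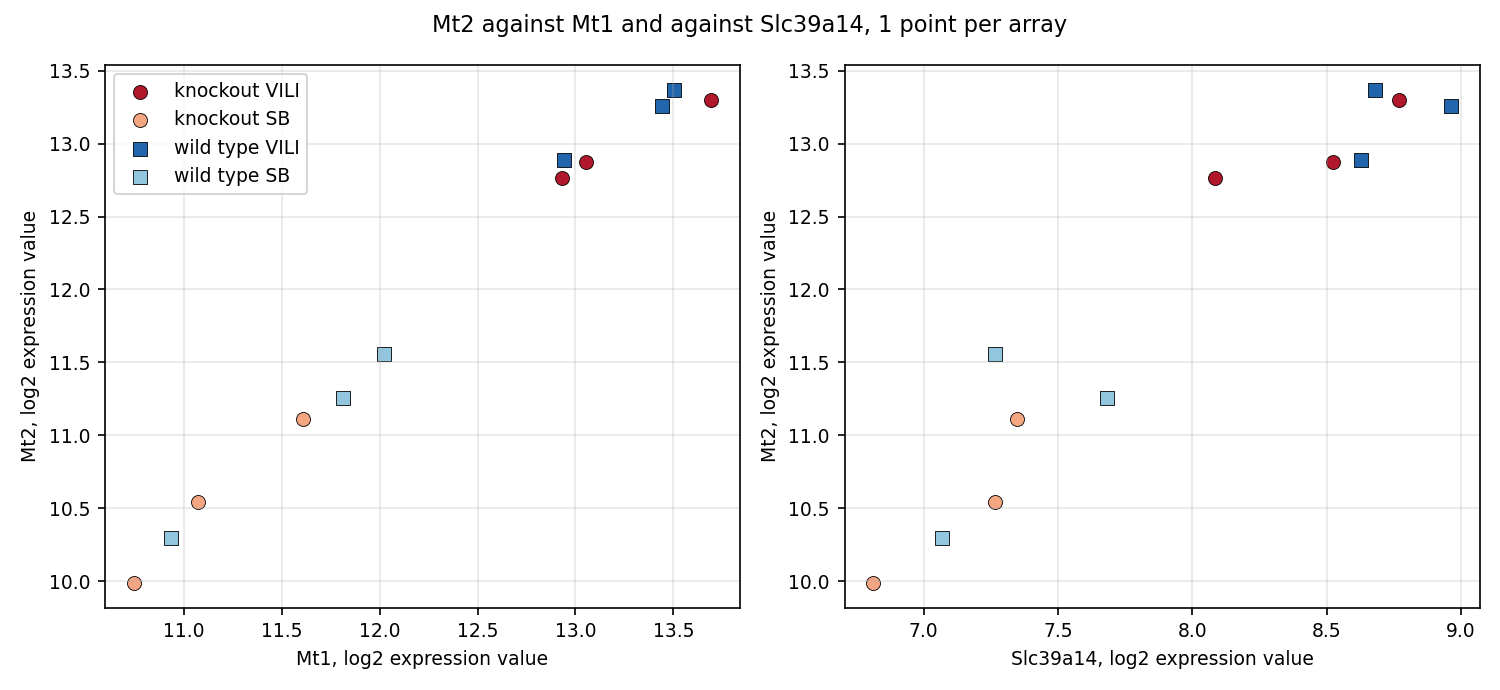
Mt2 against Mt1 (left) and Mt2 against Slc39a14 (right), log2 expression values on both axes, with 1 point per array and colours and shapes for the 4 groups. The 6 VILI arrays sit at the upper right and the 6 SB arrays at the lower left of each panel, and within each cloud Mt2 follows Mt1 closely (r = 0.950 for VILI and 0.994 for SB).

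Slc39a14, the importer that carries zinc, manganese and iron, was the third gene called. It read 8.09, 8.77 and 8.53 in GADD45-/- VILI lungs, against 7.26, 7.35 and 6.81 in GADD45-/- SB lungs. In WT lungs it read 8.63, 8.96 and 8.68 after VILI, against 7.68, 7.27 and 7.07 under SB. No VILI array overlapped an SB array. The rise was 1.32 in the knockout (SE 0.22, interval 0.84 to 1.80, limma adjusted p = 0.0121), or 2.49-fold, and 1.42 in WT (SE 0.22, interval 0.94 to 1.90, adjusted p = 0.0129), or 2.67-fold. Averaged over genotypes it was 1.37 (SE 0.16, adjusted p = 0.000544). Of its 3 other probe sets, which did not pass the filter on low values, 1425649_at averaged 4.84 ± 0.86 in GADD45-/- VILI lungs and 4.03 ± 0.31 in GADD45-/- SB lungs, and 4.66 ± 0.48 in WT VILI lungs and 3.85 ± 0.01 in WT SB lungs (SD, n = 3 each). The remaining 2 lay between 2.53 and 5.01.

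Slc39a8, the close relative of Slc39a14, did not pass. Its values were 12.04, 11.78 and 11.43 in GADD45-/- VILI lungs, against 11.83, 11.98 and 11.71 in GADD45-/- SB lungs, and 11.86, 11.77 and 11.92 in WT VILI lungs, against 11.87, 12.12 and 12.02 in WT SB lungs. The groups overlapped in both genotypes. The change was -0.09 in the knockout (interval -0.40 to 0.21, limma adjusted p = 0.741) and -0.15 in WT (interval -0.46 to 0.16, adjusted p = 0.582). The importers therefore differed in their response within the same arrays: Slc39a14 minus Slc39a8 was higher after VILI by 1.49 (exact permutation p = 0.005, two-sided, the smallest that 400 relabellings allow), by 1.41 in the knockout and by 1.57 in WT. Here too the relabellings take the arrays of the genotypes as independent, though same-numbered SB arrays deviated together over all genes. A second Slc39a8 probe set (1448482_at) was less even. It read 10.49, 10.46 and 9.03 in GADD45-/- VILI lungs, against 10.88, 11.21 and 9.86 in GADD45-/- SB lungs, and 10.53, 10.37 and 9.63 in WT VILI lungs, against 9.70, 9.92 and 9.90 in WT SB lungs. Replicate 3 was the lowest of each group except WT SB, and limma gave -0.65 in the knockout (adjusted p = 0.420) and 0.34 in WT (adjusted p = 0.695) over all probe sets.

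Mtf1, the sensor that drives metallothionein genes, did not pass in either genotype. It read 6.73, 6.88 and 6.84 in GADD45-/- VILI lungs, against 6.57, 6.33 and 6.81 in GADD45-/- SB lungs. In WT lungs it read 6.63, 6.63 and 6.74 after VILI, against 6.51, 6.62 and 6.62 under SB. The WT groups do not overlap, as for 31.6% of all genes, and the knockout groups do. The change was 0.24 in the knockout (interval -0.07 to 0.56, limma adjusted p = 0.345) and 0.08 in WT (interval -0.23 to 0.40, adjusted p = 0.789). Of its 4 other probe sets, 1418333_at lay between 6.46 and 6.68 and 1429170_a_at between 4.92 and 6.97, and the 2 that did not pass the filter lay between 1.86 and 2.14.

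Slc30a1, the plasma membrane exporter and a known Mtf1 target, did not pass either. Its values were 10.01, 9.88 and 9.70 in GADD45-/- VILI lungs, against 10.16, 9.83 and 10.05 in GADD45-/- SB lungs, and 9.59, 9.83 and 9.70 in WT VILI lungs, against 10.08, 9.72 and 9.85 in WT SB lungs. Both pairs of groups overlapped. Limma gave -0.15 in the knockout (interval -0.44 to 0.14, adjusted p = 0.548), -0.18 in WT (interval -0.47 to 0.11, adjusted p = 0.475) and -0.16 averaged over genotypes (interval -0.37 to 0.04, adjusted p = 0.247). The upper limits lie below every interval of Mt1 and Mt2. Its second probe set lay between 6.28 and 6.77 over all arrays.

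Slc30a5, an exporter into the early secretory pathway, read 10.21, 10.21 and 10.45 in GADD45-/- VILI lungs, against 10.11, 10.11 and 10.04 in GADD45-/- SB lungs. In WT lungs it read 10.14, 10.14 and 10.06 after VILI, against 9.98, 10.15 and 10.07 under SB. The knockout groups do not overlap, as for 23.6% of all genes, yet the difference of 0.20 did not pass (SE 0.09, interval -0.00 to 0.41, limma adjusted p = 0.234), and WT gave 0.04 (adjusted p = 0.834). Slc39a1, a plasma membrane importer, was the steadiest member, between 8.98 and 9.24 on all arrays. Its changes were 0.10 in the knockout (interval -0.11 to 0.30, adjusted p = 0.582) and -0.03 in WT (interval -0.24 to 0.17, adjusted p = 0.879).

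The rest of the zinc transporters are given beside the 8 genes, as a description, since the 8 were chosen with earlier results of these data known. Of 8 other SLC30 genes, 4 passed the filter on low values, and of 11 other SLC39 genes 8 did. Limma called 0 of these 12 for VILI in either genotype (1 and 0 at an unadjusted p under 0.05 in the knockout and WT), with changes from -0.43 to 0.23 in the knockout and from -0.30 to 0.21 in WT. Their median was -0.06 in each genotype, against 0.00 over all genes in the knockout and -0.05 in WT. Averaged over genotypes 1 was called, Slc39a13, an importer of the early secretory pathway, which fell by 0.34 (SE 0.10, adjusted p = 0.0410), and its call was lost in 13 of 20 alternatives (highest adjusted p = 0.0930). Slc39a10 had the lowest knockout value, -0.43 (adjusted p = 0.258), against -0.11 in WT. The other metallothioneins, Mt3 of the brain and Mt4 of stratified epithelium, did not pass the filter on low values, with readings of 3.28 to 3.46 and 2.62 to 2.72 over all arrays.

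**Figure D4:**
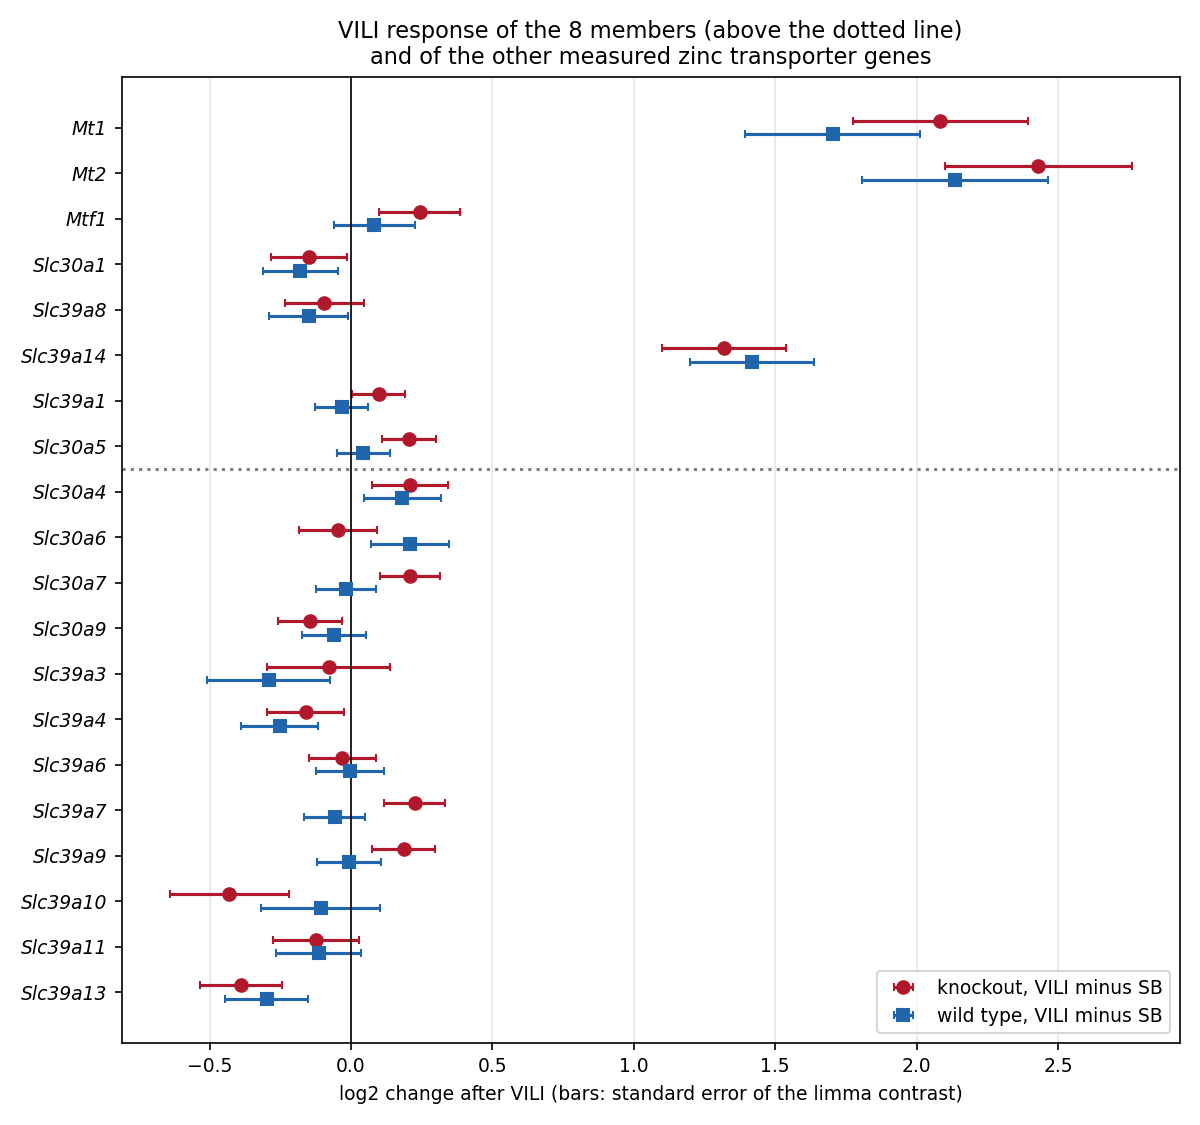
Log2 change after VILI (x axis, VILI minus SB) of the 8 genes, above the dotted line, and of the 12 other zinc transporter genes measured, below it. Red circles are the knockout, blue squares are WT, and bars are the standard error of the limma contrast. Mt1, Mt2 and Slc39a14 stand between 1.32 and 2.43, and the other transporters between -0.43 and 0.23.

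No difference between the genotypes passed the test in the 8 genes. After VILI, limma called 0 of 8 between GADD45-/- and WT lungs (0 at an unadjusted p under 0.05), with 0.1% of all genes called. Under SB it called 0 of 8 (0 unadjusted), with 0.109% of all genes called. The interaction, the knockout's VILI response minus that of WT, called 0 of 8 (0 unadjusted), and the share of all genes called was 0%. After VILI the knockout difference was -0.07 for Mt1 (interval -0.75 to 0.61, adjusted p = 0.982), -0.19 for Mt2 (interval -0.92 to 0.53, adjusted p = 0.914) and -0.30 for Slc39a14 (interval -0.78 to 0.19, adjusted p = 0.791). Under SB it was -0.45 for Mt1 (interval -1.13 to 0.23, adjusted p = 0.647), -0.49 for Mt2 (interval -1.21 to 0.24, adjusted p = 0.637) and -0.20 for Slc39a14 (interval -0.68 to 0.28, adjusted p = 0.798). The interaction was 0.38 for Mt1 (interval -0.58 to 1.34), 0.30 for Mt2 (interval -0.73 to 1.32) and -0.10 for Slc39a14 (interval -0.78 to 0.58), each with an adjusted p of 1.0. These intervals leave room for differences of about the size of 1 log2 unit in Mt1 and Mt2, so a shared response is not shown. Same-numbered SB arrays of the genotypes deviated together over all genes and were taken as pairs. Within pairs 1, 2 and 3, knockout minus WT was -0.74, -0.42 and -0.19 for Mt1 and -0.71, -0.44 and -0.31 for Mt2. Both were lower in the knockout in 3 of 3 pairs, and 5 of the 8 genes had 1 sign in all 3 pairs. The share of all genes with 1 sign in all 3 pairs was not computed, so these counts have no reference. An exact paired permutation test, added after the values were seen, gave p = 0.25 for Mt1 and for Mt2, the smallest that 3 pairs allow. With the replicate number as a block, limma gave adjusted p = 0.464 for Mt1 and 0.472 for Mt2. Groups did not overlap for Slc30a5 after VILI, higher in the knockout by 0.18 (adjusted p = 0.751), and for Slc39a1 under SB, at -0.12 (adjusted p = 0.693), as for 14.8% and 15.2% of all genes.

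Genes known to act on metallothioneins were read beside them. Among 5 other genes linked to Mtf1, Gclc, the catalytic subunit of glutamate-cysteine ligase, rose by 1.30 in the knockout (limma adjusted p = 0.00595), and WT gave 0.67 (adjusted p = 0.0737). The remaining 4, Ndrg1, Pgf, Csrp1 and Selenoh, were called in neither genotype. Of 11 interleukin 6 and acute phase genes tested, 3 were higher in the knockout and 1 in WT, with medians of 0.52 and 0.05. Of all genes, 2.76% and 1.36% were called higher. The lists were chosen with earlier results of these data known, so their counts are a description. Il6 read 5.84, 7.88 and 7.45 in GADD45-/- VILI lungs, against 2.18, 2.33 and 2.11 in GADD45-/- SB lungs, and 3.71, 4.44 and 7.14 in WT VILI lungs, against 2.16, 3.61 and 2.21 in WT SB lungs. It rose by 4.86 in the knockout (adjusted p = 0.0108, lost in 2 of 21 alternatives, highest 0.0679) and gave 2.43 in WT (adjusted p = 0.113), where VILI replicate 3 alone reached the knockout VILI range. The SB readings and those of WT VILI replicates 1 and 2 lie below the array medians, so both sizes are approximate. Stat3, which transmits the interleukin 6 signal, rose by 0.62 in the knockout (adjusted p = 0.00596) and by 0.40 in WT (adjusted p = 0.0407), the WT call being lost in 10 of 21 alternatives (highest adjusted p = 0.163). Its inhibitor Socs3 rose by 2.36 in the knockout (adjusted p = 0.0186, lost in 5 of 21 alternatives, highest 0.106), with 1.69 in WT (adjusted p = 0.0717).

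Of 8 glucocorticoid response genes, limma called 0 in each genotype (3 in the knockout and 1 in WT at an unadjusted p under 0.05), with medians of -0.23 and -0.03. The 3 in the knockout all had lower values after VILI: Nr3c1 (-0.35, adjusted p = 0.126), Klf9 (-0.23, adjusted p = 0.197) and Dusp1 (-0.34, adjusted p = 0.197). The 1 in WT was Fkbp5. Fkbp5, a glucocorticoid-induced chaperone, gave 0.97 in the knockout (adjusted p = 0.269) and 1.11 in WT (adjusted p = 0.221). It read 12.1, 12.4 and 12.0 in GADD45-/- VILI lungs, against 11.6, 11.1 and 10.9 in GADD45-/- SB lungs. In WT lungs it read 12.1, 12.2 and 11.9 after VILI, against 12.5, 10.4 and 9.9 under SB, where replicate 1 was the highest of all arrays. The other metals moved in few genes. Of 10 copper handling genes, 0 were called in either genotype (1 in each at an unadjusted p under 0.05), and averaged over genotypes Atp7b, a copper-exporting ATPase, fell by 0.52 (adjusted p = 0.0288, lost in 7 of 20 alternatives, highest 0.143). Of 10 iron handling genes tested, Hmox1, the heme-degrading enzyme, rose by 2.81 in the knockout (adjusted p = 0.0205), with 1.5 in WT (adjusted p = 0.159). The knockout call was lost in 8 of 21 alternatives, with adjusted p up to 0.130. Averaged over genotypes, Hmox1 rose by 2.16 (adjusted p = 0.00552), Slc40a1, the iron exporter ferroportin, by 1.12 (adjusted p = 0.0162) and Lcn2, which binds iron-carrying siderophores, by 1.0 (adjusted p = 0.00541). Of all genes, 8.42% were called higher in that average.

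The genes whose values followed the mean of Mt1 and Mt2 most closely over the 12 arrays were Tnfrsf12a, Pvr, Gsr, Myd88, Larp4, Rcan1, Slc38a2 and Kcnk1, with Pearson's r between 0.963 and 0.976. VILI and SB arrays form separate clouds, which alone gives a high r, so r was also taken with the group means removed. It was then highest for Slc38a2, a neutral amino acid transporter (0.928), and Larp4 (0.907), and lowest for Myd88 (0.705). Tnfrsf12a, the receptor of the cytokine TWEAK, rose by 2.73 in the knockout (limma adjusted p = 0.00595) and by 2.34 in WT (adjusted p = 0.0159). It was chosen by its r with Mt1 and Mt2 over these same arrays, so these p are a description. For Slc39a14 they were Cd300lf, Sec24a, Gimap6, Ino80c and Rdh12, with r between 0.953 and 0.976, and between 0.633 and 0.885 with the group means removed. The r values describe arrays that share treatment and normalization, and carry no test.

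Gadd45a read 5.36 to 6.02 in GADD45-/- VILI lungs, 4.58 to 6.15 in GADD45-/- SB lungs, 9.75 to 10.33 in WT VILI lungs and 8.62 to 9.51 in WT SB lungs, so each label fits its gene, though whether the probes lie in the deleted stretch is not known here. Of 9 neutrophil markers that passed the filter on low values, 7 rose after VILI in each genotype. The log2 of the summed level of the 10 on the array was 14.7 to 15.5 and 14.5 to 15.2 in knockout and WT VILI lungs. Under SB it was 12.3 to 12.9 and 11.7 to 12.1, and its part in the rises of Mt1, Mt2 and Slc39a14 was not tested. The summed level of 8 endothelial markers was 14.2 to 14.6 and 14.6 in knockout and WT VILI lungs, against 14.8 to 15.1 in both SB groups, with 2 lower in the knockout, 1 in WT and 4 averaged. That of 10 macrophage and monocyte markers on the array overlapped between treatments (15.2 to 15.7 over the VILI arrays and 15.5 to 15.7 over the SB arrays). Of the 8 that passed the filter, 0 were called in either genotype and 1 was higher averaged. Airway and type I markers also moved. The summed level of 6 ciliated cell markers was 10.7 to 11 in both VILI groups, against 11.1 to 11.2 in GADD45-/- SB and 11.3 to 11.6 in WT SB lungs, with 0 called lower in the knockout, 3 in WT and 5 averaged. That of 4 club cell markers was 16.4 to 16.5 and 16.5 to 16.6 in knockout and WT VILI lungs, against 16.6 to 16.8 in both SB groups, with 1 lower in the knockout, 0 in WT and 3 averaged. Of 6 type I epithelial markers 1 was lower in each genotype, and of 7 type II markers 2 were lower averaged. The part of these levels in the results was not tested. Of 5 markers on the array of liver, a tissue rich in Mt1, Mt2 and Slc39a14, 0 passed the filter on low values. Replicate 3 of both knockout groups stood apart in B cell markers (12.5 and 12.2, against 7.72 to 9.67 elsewhere); without both, the knockout rises were 1.97 for Mt1 (limma adjusted p = 0.0485), 2.20 for Mt2 (adjusted p = 0.0388) and 1.12 for Slc39a14 (adjusted p = 0.0704). WT SB stood apart in the array's RNA-quality readings: the 3' minus 5' difference of Actb control probes was 1.07 to 1.10 there, against 0.54 to 0.89 in the other 3 groups, and that of Gapdh was 0.49 to 0.67, against -0.12 to 0.44. These readings move with every comparison that holds WT SB. Those are the WT rises, the rises averaged over genotypes, the genotype differences under SB and the interaction. The part of the readings in them was not tested.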

How the data were processed

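RNA from 12 mouse lungs, 3 per group, was hybridised to Affymetrix arrays, and the series design counts 3 mice per group. The authors deposited log2 expression values for 45101 probe sets per array, already normalized. MAS5 and GCRMA are both named in the submitters' processing notes, and which of them gave these values is not stated there. Per array the median lay at 4.37 to 4.59, the lowest value at 0.67 to 0.69 and the highest at 15.5 to 15.9. Precision is limited by the 3 arrays of a group.

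After removal of 64 control probe sets, a filter on low values asked for 3 or more of 12 arrays above their own median; 23082 of 45037 passed. Names came from the platform annotation (34945 probe sets with 1 symbol, 932 with several, 9160 with none). The brightest kept probe set, by its mean over arrays, stood for a gene, giving 10996 genes. The members had 18 probe sets, of which 13 were kept, 5 were not (2 of Mtf1 and 3 of Slc39a14), and all 8 genes were tested. Group means of the 4 groups were fitted together with limma 3.58.1 (R 4.3.3; files were read with data.table in version 1.17.8; empirical Bayes with trend; 8 residual and 3.36 prior degrees of freedom), two-sided, with Benjamini-Hochberg adjustment over 10996 genes and a threshold of 0.05. Within-array differences and pairs of SB arrays were tested with exact permutation in R. Correlations were tested with exact permutation in Python 3.11.15, with ranks and adjustment from scipy 1.17.1. The fit was tested on simulated data. Promoter sequences came from RefSeq windows labelled GRCm38.p6, and gene order came from RefSeq.

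The members and lists were chosen with earlier results of these data known. All members were named whatever their values; from each list of related genes, those past the threshold and up to 3 more were named, and the genes most like Mt1 and Mt2 (8) or Slc39a14 (5) by Pearson's r. Replicate numbers were checked for pairing: correlations of same-numbered deviations were 0.23, 0.53 and 0.32 for the knockout comparison under SB, where they were taken as pairs, and reached as low as -0.04 for VILI in WT. Alternatives were the filter, the probe set rule, 2 normalizations, the trend, a replicate block, the 2 compared groups alone, each array left out in turn, and both knockout arrays numbered 3 left out.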

Additional observations from a re-analysis of the deposited data

How the results depend on the processing

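With VILI averaged over genotypes, Mt1, Mt2 and Slc39a14 were called under each alternative tried (highest adjusted p 0.00345, 0.00225 and 0.00345). Except for the replicate block, these fits take same-numbered SB arrays of the genotypes as independent, though these deviated together over all genes. Single genotypes were less steady. With only the 6 knockout arrays, 0 of 8 genes were called (Mt1 at adjusted p = 0.0583, Mt2 at 0.0519 and Slc39a14 at 0.0827, with 11 of all genes called), at the same changes and with fewer arrays to estimate the spread; with only the 6 WT arrays, 3 of 8 were called (475 of all genes). Leaving out 1 array gave 2 to 3 calls in the knockout and 0 to 3 in WT. The knockout lost Slc39a14 without knockout VILI replicate 2 (adjusted p = 0.0586). WT had 0 without WT VILI replicate 2 (Mt1 at 0.115, Mt2 at 0.0760, Slc39a14 at 0.0801), 1 without WT SB replicate 3 (Mt1 at 0.0861, Slc39a14 at 0.0758) and 2 without WT VILI replicate 3 (Mt1 at 0.0639) or with no filter on low values (Mt1 at 0.0577). Without 1 array, the averaged count stayed at 3 and those of both knockout comparisons and of the interaction at 0. Mt2 minus Mt1 turned to -0.29 with the mean of Mt1's kept probe sets and was 0.35 to 0.43 without 1 array, and Slc39a14 minus Slc39a8 was 1.39 to 1.66. A replicate block left the counts at 3, 3, 3, 0, 0 and 0 and changed no call of the 8 genes (Mt2 at adjusted p = 0.00189 in the knockout). Over all genes it called 667 in the knockout, against 491 without it, and 442 in WT, against 290. Over all settings, 174 of 186 alternatives kept the members' calls and 12 lost one; 0 uncalled values were gained and 14 of 39 changed sign. The cause of each loss was not tested.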

Other observations

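When VILI was averaged over genotypes, 4 genes of the interleukin 6 and acute phase list rose, and 1 of them, Timp1, was called in neither genotype alone. Of all genes, 8.42% were called higher in that average. Timp1, the tissue inhibitor of metalloproteinases, rose by 0.71 (limma adjusted p = 0.0194, and 0.0545 without WT VILI replicate 2), with 0.93 in the knockout (adjusted p = 0.0583) and 0.49 in WT (adjusted p = 0.283). Il6 rose by 3.64 (adjusted p = 0.00235), Socs3 by 2.02 (adjusted p = 0.00265) and Stat3 by 0.51 (adjusted p = 0.000709), and Gclc, of the genes linked to Mtf1, by 0.98 (adjusted p = 0.00108). The size for Il6 is approximate, since its SB readings and those of WT VILI replicates 1 and 2 lie below the array medians. The glutathione reductase gene Gsr, among those most like Mt1 and Mt2, rose by 1.07 in the knockout (adjusted p = 0.00788) and by 0.80 in WT (adjusted p = 0.0290), the WT call being lost in 7 of 21 alternatives (highest adjusted p = 0.136). The immune receptor gene Cd300lf, the closest match of Slc39a14, rose by 2.05 in the knockout (adjusted p = 0.0102) and by 1.79 in WT (adjusted p = 0.0223, lost in 5 of 21 alternatives, highest 0.115). Gsr and Cd300lf were chosen by their r with Mt1 and Mt2 or with Slc39a14 over these same arrays, so their p are a description.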
